A study of Mus musculus with 4 samples.

Results

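The 28 integrin and laminin genes of *Mst-/-* and wild type embryoid bodies (EBs) are described here across 4 expression arrays. The members were the genes whose array symbol was that of an integrin α or β chain or of a laminin α, β or γ chain, read from probe sets that carry exactly 1 symbol. They comprised 22 integrin and 6 laminin genes of 16358 genes, and 888 of 229581 probe sets, with 14 to 77 probe sets per member. A gene's signal is the median over its probe sets on an array, on a log2 scale. The array annotation spells the laminin β1 gene in an older form that the symbol rule does not take, so *Lamb1* is not among the members and is given beside them. Other genes of these families, *Itga1*, *Itga4* and *Itgb8* among them, are not analysed here.

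EBs of both genotypes, *Mst-/-* and wild type, were harvested after 8 and 4 days, and the total RNA of each was put on its own Affymetrix mouse exon array. The study asked how loss of the Hippo kinases Mst1 and Mst2 alters differentiation of mouse embryonic stem (ES) cells. The *Mst-/-* ES cells carried deletions of kinase domain exons in both genes and came from blastocysts of crosses between *Mst1+/- Mst2-/-* mice on a C57BL/6 background. They were derived on mouse embryonic fibroblast feeders and adapted to feeder-free culture with 2i and LIF, and both genotypes formed EBs as floating cells on non-adherent dishes in medium without these factors. The study had 2 *Mst-/-* lines, and which of them was on the arrays is not stated in the sources used here, nor is the origin of the wild type line. A genotype is therefore 1 line on 1 array, and a difference between the genotypes cannot be told apart from a difference between lines, cultures or arrays. The title of the *Mst-/-* day 8 array gives day 8, whereas one of its other labels gives day 4. It was taken as day 8 by its title. Between the *Mst-/-* arrays 20.7% of the genes compared lay over 1.5-fold apart. Between the genotypes that share was 16.6% at day 8 and 18.9% at day 4, so it does not settle the day. In each genotype, 7 of 8 fibroblast markers were over 1.5-fold higher on the array titled day 8. Of 5 primitive streak markers, 4 in *Mst-/-* EBs and 5 in wild type EBs were lower. Over all genes compared, 13.3% and 16.7% were higher and 7.48% and 12.7% lower, in that order of genotypes. Of the leukocyte markers compared, 1 of 4 was higher in *Mst-/-* EBs and 5 of 6 in wild type EBs. The day was not tested.

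Integrins are cell surface receptors made of 1 α and 1 β chain. They bind proteins of the extracellular matrix or of neighbouring cells and connect them, through talin, kindlin and other adaptors, to the actin cytoskeleton. Laminins are secreted trimers of an α, a β and a γ chain that polymerize into the sheet of a basement membrane. In EBs the outer layer of primitive endoderm lays down a laminin-rich basement membrane, and the cells beneath it attach through integrins that contain the β1 chain and organize into an epithelium.

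With 1 array per genotype and day a difference between 2 arrays could not be tested, and p-values are absent throughout. An error printed beside a difference is the SD of that difference among a gene's own probe sets, a technical spread that says nothing of cultures. Olfactory and vomeronasal receptors, 1013 genes with no known use in EBs, served as background, set on each array at their 95th percentile. It stood at 6.91 and 7.03 on the *Mst-/-* and wild type arrays of day 8, and at 6.96 and 7.03 on those of day 4. A gene entered a comparison when either of its 2 arrays put it above background. Between the genotypes these receptors spread with an SD of 0.44 at day 8 and at day 4, and 12.8% of them at day 8 and 15.5% at day 4 lay over 1.5-fold apart, so a dim gene can pass 1.5-fold without signal. In *Stk4*, the gene of Mst1, 2 of 13 probe sets had signals of 3.83 to 4.80 on the *Mst-/-* arrays, against 11.42 to 12.03 on the wild type arrays. The other 11 probe sets differed by -0.30 to 0.39. *Stk3*, the gene of Mst2, is not analysed here. In bulk RNA, fewer cells of a type and less RNA per cell cannot be told apart.

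Of the 28 members, 23 lay above background on at least 1 array and 16 on all 4. The 5 members whose median over probe sets was below background on every array were *Itga2*, *Itgae*, *Itgax*, *Itgb2l* and *Itgb6*, with signals of 5.52 to 6.91. Single probe sets of them, such as some of *Itga2*, lay above it. Members that passed this filter through only 1 of the arrays compared, such as *Itgam* and *Itgb2*, were bound to differ, so counts over the members compared are descriptions. The same holds for the counts of the gene lists below.

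**Figure D1:**
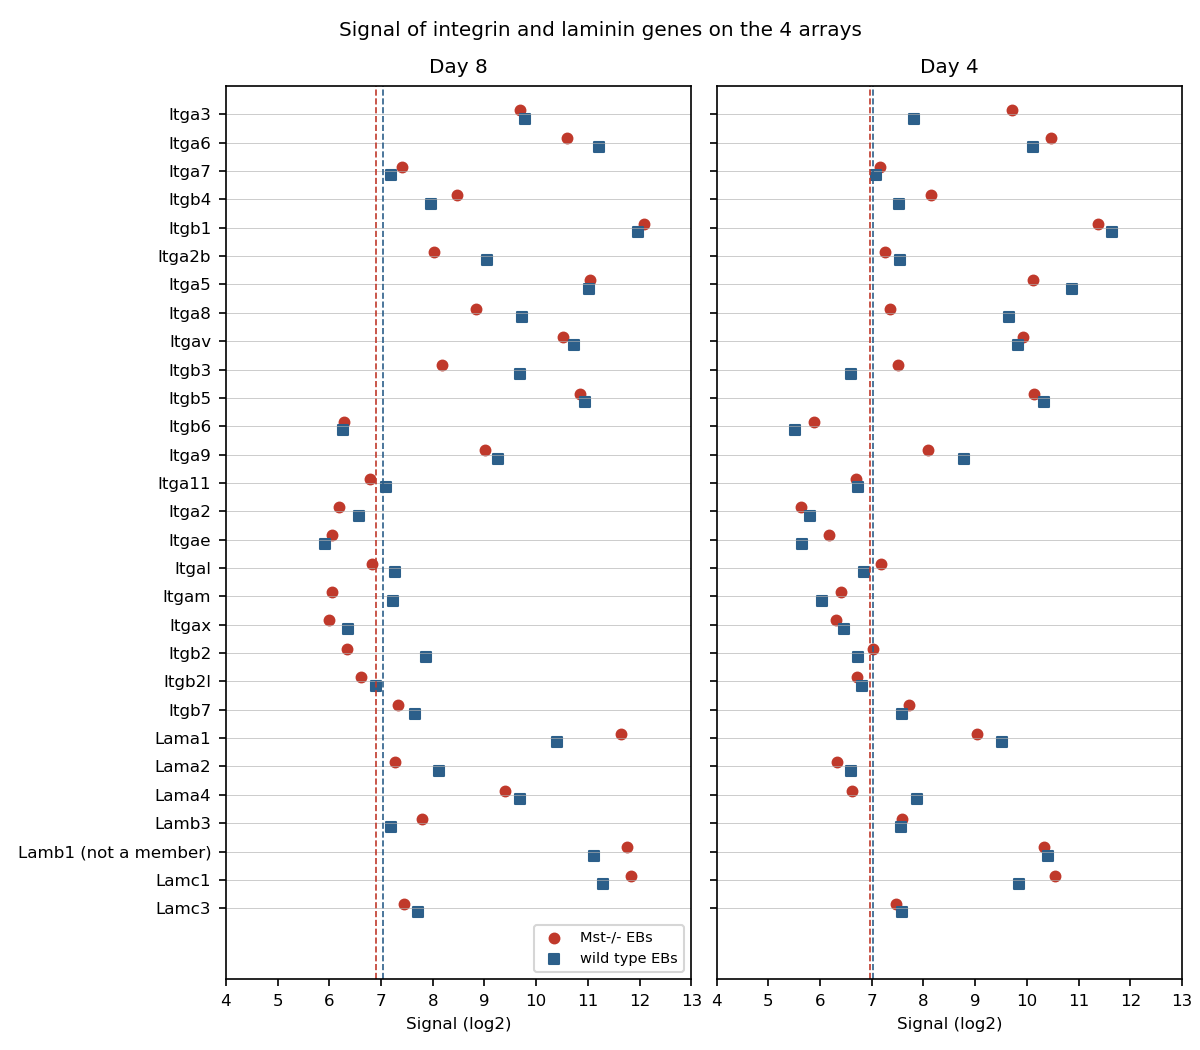
Signal (log2, horizontal axis) of the 28 integrin and laminin genes and of *Lamb1* in *Mst-/-* EBs (circles) and wild type EBs (squares) at day 8 (left) and day 4 (right), 1 array each, with dashed lines at each array's background. *Lama1* is the member farthest to the right of its wild type value at day 8 (11.64 against 10.40), and *Itga8* and *Itga3* are the widest pairs at day 4, in opposite directions.

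At day 8, *Mst-/-* EBs had more RNA of the laminin α1 and β1 chains of the early embryo than wild type EBs and less of 6 integrin chains and the laminin α2 chain. *Lama1* was 2.36-fold higher, and of its partner chains *Lamb1* was 1.56-fold higher and *Lamc1* 1.44-fold higher, just short of the threshold of 1.5-fold. *Itgb2*, *Itgb3*, *Itga2b*, *Itgam*, *Itga8*, *Lama2* and *Itga6* were over 1.5-fold lower by the measured values. *Itgam* and *Itgb2* were below background in *Mst-/-* EBs, and with such values set at background *Itgam* did not pass 1.5-fold and 6 members were lower. With the mean over probe sets in place of the median, *Lamb1* (0.565) and *Itga6* (-0.581) were short of 1.5-fold. *Itgb1*, the β chain that most integrins of attached cells share, differed by 0.12 ± 0.30. Of 23 members compared, 2, *Lama1* and *Lamb3*, were over 1.5-fold higher (8.7%) where the share over all genes compared was 8.42%, and 7 were over 1.5-fold lower (30.4%) where it was 8.22%. Of all 23 compared members, 39.1% passed 1.5-fold in either direction where the share over all genes was 16.6%. The median over the members compared was -0.27, beside 0.05 over all genes compared. The 17 integrins compared held 0 higher and 6 lower genes, and the 6 laminins held 2 higher and 1 lower.

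At day 4 the members were split, with 4 higher and 4 lower in *Mst-/-* EBs. *Itga3*, a laminin-binding chain, was 3.76-fold higher, and *Itga8*, a receptor chain for nephronectin, was 4.96-fold lower. *Itgb3*, *Lamc1* and *Itgb4* were also over 1.5-fold higher, and *Lama4*, *Itga5* and *Itga9* over 1.5-fold lower. Of the 20 members compared, 20.0% were higher and 20.0% were lower, where the shares over all genes compared were 10.3% and 8.52%, and 40.0% passed in either direction where that share was 18.9%. The median over the members compared was 0.05, beside 0.02 over all genes compared. Of the 15 members over 1.5-fold apart on at least 1 day by the measured values, *Itga8* and *Itgb3* were so on both days, *Itga8* lower on both and *Itgb3* in opposite directions. The share of all genes past 1.5-fold on both days was not counted, so this overlap is a description only. The day 4 value of *Itgb3* in wild type EBs was below background, and against it the gene was at least 1.39-fold higher, short of 1.5-fold. The 2 genotype comparisons share no array. *Lamb1* included, 18 pairs of a gene and a day passed 1.5-fold, and 7 of them did so when a gene was read from its brightest probe set alone, namely *Itga3* and *Itga9* at day 4, *Itga8* on both days, and *Itgb2*, *Lama1* and *Lama2* at day 8.

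**Figure D2:**
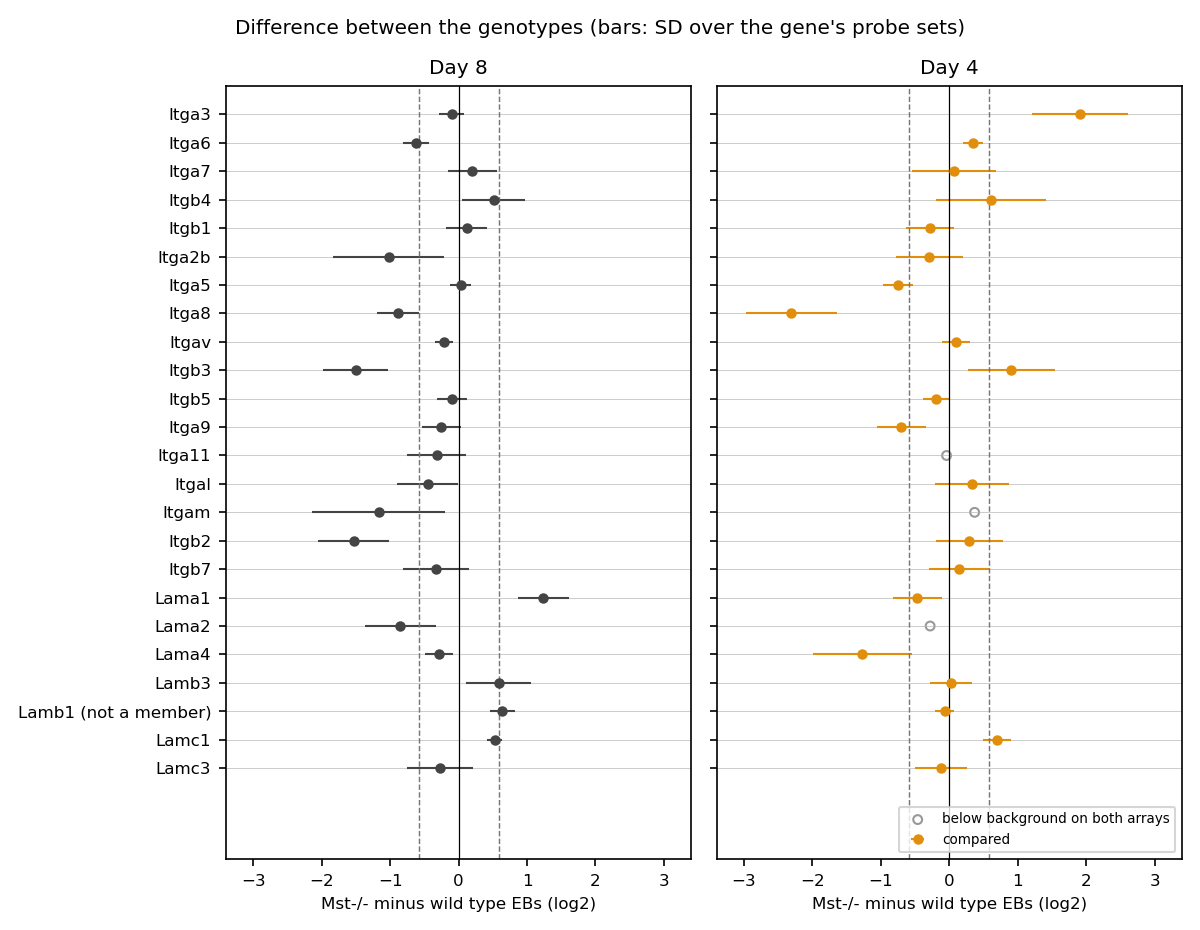
Difference of signal, *Mst-/-* minus wild type EBs (log2, horizontal axis), at day 8 (left) and day 4 (right) for the 23 members above background on at least 1 array and for *Lamb1*; bars give the SD among a gene's probe sets, dashed lines mark 1.5-fold, and open circles were below background on both arrays. *Lama1* lies at 1.24 at day 8 and -0.47 at day 4, and *Itgb3* at -1.50 and 0.90.

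Among the laminins, *Lama1* encodes the α1 chain, the main laminin α chain of the embryo around implantation and of the membrane that parietal endoderm lays down. Its signal was 11.64 in *Mst-/-* EBs and 10.40 in wild type EBs at day 8, and 9.04 in *Mst-/-* EBs and 9.51 in wild type EBs at day 4. It was higher in *Mst-/-* EBs by 1.24 ± 0.37 at day 8, and the difference at day 4 was -0.47 ± 0.36. The direction was shared by 76 of 77 probe sets at day 8 and by 70 of 77 at day 4. Between day 8 and day 4 the gene differed by 2.60 ± 0.62 (6.06-fold) in *Mst-/-* EBs and by 0.89 ± 0.30 (1.85-fold) in wild type EBs. One *Lama1* probe set stood apart from the rest of the gene. Its signals were 11.81 in *Mst-/-* EBs and 8.64 in wild type EBs at day 8, and 8.54 in *Mst-/-* EBs and 7.07 in wild type EBs at day 4. The genotypes differed by 3.17 and 1.47 on it, and by -0.08 to 1.89 at day 8 and -1.24 to 0.21 at day 4 on the other 76. It was picked as the probe set with the highest summed difference over both days, so its place above the rest is no test. Its wild type signal at day 4 lay close to background, and 5 of the other 76 were also higher in *Mst-/-* EBs at day 4.

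The β1 and γ1 chains join α1 in the same trimer. *Lamc1*, the γ1 chain gene, had a signal of 11.83 in *Mst-/-* EBs and 11.30 in wild type EBs at day 8, and of 10.55 in *Mst-/-* EBs and 9.85 in wild type EBs at day 4. It differed by 0.53 ± 0.11 at day 8 and 0.70 ± 0.21 (1.62-fold) at day 4, with 29 of 29 probe sets higher in *Mst-/-* EBs on each day, and was the only chain of this trimer with a positive difference on both days. *Lamb1*, read from 35 probe sets, had a signal of 11.75 in *Mst-/-* EBs and 11.11 in wild type EBs at day 8, a difference of 0.64 ± 0.19 that all 35 shared. At day 4 its signal was 10.33 in *Mst-/-* EBs and 10.40 in wild type EBs, a difference of -0.07 ± 0.14. At day 8 the signals of all 3 chains of the trimer were thus above those of wild type EBs, and at day 4 the chains went different ways.

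The remaining laminin chains belong to basement membranes of later tissues. *Lama2*, the α2 chain of muscle and nerve, had a signal of 7.27 in *Mst-/-* EBs and 8.12 in wild type EBs at day 8, a difference of -0.85 ± 0.52 (1.80-fold) that 67 of 67 probe sets shared. At day 4 it was below background in both genotypes, at 6.32 in *Mst-/-* EBs and 6.60 in wild type EBs. *Lama4*, the α4 chain of vascular basement membranes, had a signal of 9.40 in *Mst-/-* EBs and 9.69 in wild type EBs at day 8, and of 6.61 in *Mst-/-* EBs and 7.88 in wild type EBs at day 4. Its day 4 difference was -1.27 ± 0.72, with 40 of 42 probe sets lower. Since the *Mst-/-* value was below background, it was set at background, which makes the gene at least 1.89-fold lower there. *Lamb3*, the β3 chain of epidermal laminin, was dim on every array, at 7.79 in *Mst-/-* EBs and 7.20 in wild type EBs at day 8 and at 7.60 in *Mst-/-* EBs and 7.57 in wild type EBs at day 4. Its day 8 difference of 0.58 ± 0.48 lay at the threshold itself, with 21 of 28 probe sets higher, and was 0.57 after centring the arrays, 0.44 with the mean over probe sets, 0.41 with probe sets above background and 0.07 with the brightest probe set, all short of 1.5-fold. *Lamc3*, the γ3 chain, stood at 7.45 in *Mst-/-* EBs and 7.72 in wild type EBs at day 8, and at 7.46 in *Mst-/-* EBs and 7.58 in wild type EBs at day 4. It differed by -0.27 ± 0.48 at day 8 and -0.12 ± 0.38 at day 4.

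The primitive endoderm makes much of the laminin of an EB, and its markers moved in the same comparisons. Of 8 markers of primitive and parietal endoderm, 4 were over 1.5-fold higher and 2 lower in *Mst-/-* EBs at day 8, with a median of 0.41 and mean signals of 10.33 in *Mst-/-* EBs and 10.20 in wild type EBs. For this and the later lists, the shares over all genes compared at day 8 were 8.42% higher and 8.22% lower. At day 4 those shares were 10.3% and 8.52%. *Sox17*, *Foxa2*, *Thbd* and *Sox7* were higher, by 0.95, 0.72, 0.65 and 0.62, whereas *Pdgfra* and *Gata6* were lower (-1.07 and -0.93). At day 4, 4 of the 7 compared were lower, with a median of -1.42 and mean signals of 8.62 in *Mst-/-* EBs and 9.70 in wild type EBs. They were *Pdgfra* (-3.08), *Gata4* (-2.79), *Sox17* (-2.09) and *Gata6* (-1.42), all regulators or receptors of that layer that other endoderm and mesoderm also use. No marker of the list was undetected at day 8, and *Thbd* was below background in both genotypes at day 4. The part of this cell layer in the laminin differences was not tested.

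**Figure D3:**
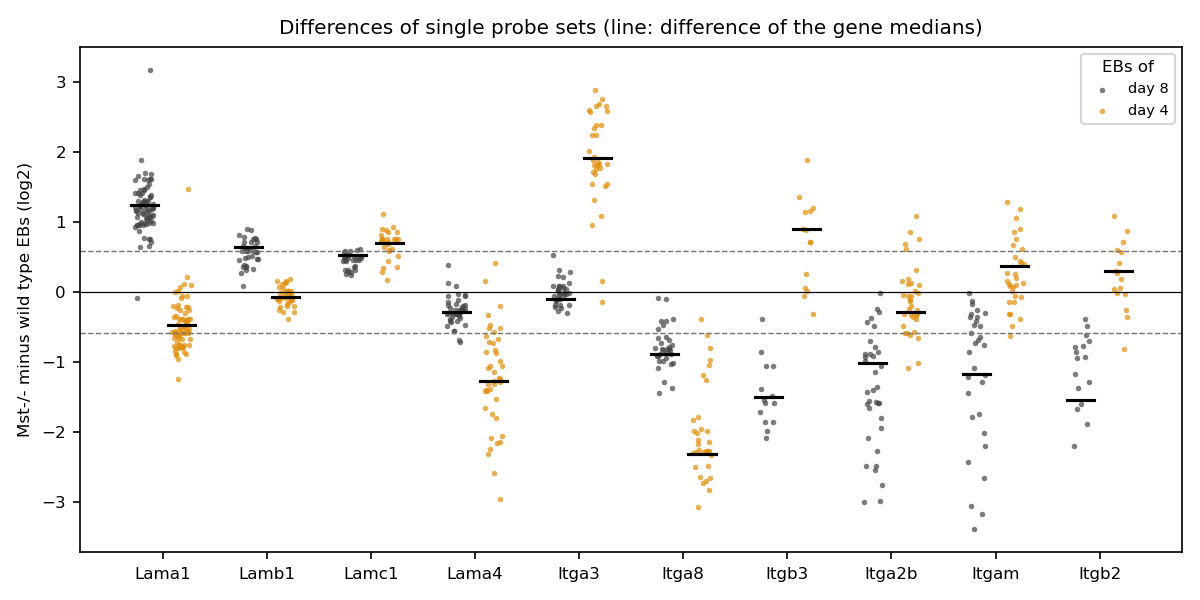
Difference of each probe set, *Mst-/-* minus wild type EBs (log2, vertical axis), for *Lamb1* and 9 members at day 8 (grey) and day 4 (orange); points are probe sets, horizontal bars the difference of the gene medians, and dashed lines 1.5-fold. *Itga8* lies below 0 on every probe set on both days, and a single *Lama1* point at 3.17 stands above all others at day 8.

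Of the chains that bind laminin, *Itga3* and *Itga6* encode α subunits that pair with β1, and α6 also pairs with β4 in hemidesmosomes, the anchors of epithelium to its basement membrane. *Itga3* had nearly the same signal on 3 of the arrays and was low on the fourth. It stood at 9.68 in *Mst-/-* EBs and 9.78 in wild type EBs at day 8, and at 9.72 in *Mst-/-* EBs and 7.81 in wild type EBs at day 4. The day 4 difference was 1.91 ± 0.70, with 32 of 33 probe sets higher, and the day 8 difference was -0.10 ± 0.18. Between day 8 and day 4 it differed by -0.04 ± 0.14 in *Mst-/-* EBs and by 1.97 ± 0.66 (3.92-fold) in wild type EBs, where all 33 probe sets were higher at day 8. *Itga6* stood at 10.60 in *Mst-/-* EBs and 11.22 in wild type EBs at day 8, and at 10.48 in *Mst-/-* EBs and 10.13 in wild type EBs at day 4. Its day 8 difference was -0.62 ± 0.19 (1.54-fold), with 28 of 28 probe sets lower, and its day 4 difference was 0.35 ± 0.15. As for *Itga3*, the change over time was in the wild type EBs, by 1.10 ± 0.41 (2.14-fold), beside 0.12 ± 0.19 in *Mst-/-* EBs.

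*Itgb4*, the partner of α6 in hemidesmosomes, stood at 8.47 in *Mst-/-* EBs and 7.96 in wild type EBs at day 8, and at 8.14 in *Mst-/-* EBs and 7.53 in wild type EBs at day 4. It was higher in *Mst-/-* EBs on 39 of 43 probe sets at day 8 (0.51 ± 0.46) and on 40 of 43 at day 4 (0.61 ± 0.80), and only the day 4 value passed 1.5-fold. *Itga7*, the laminin-binding α chain of muscle, lay close to background on all arrays. Of 6 epithelial markers, *Cdh1* and *Krt18* were over 1.5-fold higher at day 8 (0.88 and 0.82) and *Trp63* was lower (-0.78), with a median of 0.58 over the 5 compared and mean signals of 10.72 in *Mst-/-* EBs and 10.37 in wild type EBs. At day 4 none of the epithelial markers compared passed 1.5-fold. The part of epithelium in the *Itgb4* difference was not tested.

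*Itgb1* encodes the β1 chain shared by the receptors for laminin, collagen and fibronectin. It stood at 12.08 in *Mst-/-* EBs and 11.96 in wild type EBs at day 8, and at 11.37 in *Mst-/-* EBs and 11.65 in wild type EBs at day 4. The genotypes differed by 0.12 ± 0.30 and -0.28 ± 0.35, less than 1.5-fold on both days. A single probe set stood apart from the other 18. On it the signals were 10.80 in *Mst-/-* EBs and 9.58 in wild type EBs at day 8, and 10.28 in *Mst-/-* EBs and 8.92 in wild type EBs at day 4. Its differences of 1.22 and 1.36 fell outside those of the other 18 probe sets, which spanned -0.19 to 0.34 at day 8 and -0.33 to 0.01 at day 4. It was likewise picked for the highest summed difference over both days. Whether it reads a separate transcript form of the gene was not tested.

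Promoters were read where RefSeq gives them, as the 250 bases before the transcription start on the GRCm38.p6 build, and 3 are printed. Promoter entries matched 18 of the 29 genes (members and *Lamb1*), with 21 promoters. Short motifs were looked for on both strands, and the share of all 32851 promoters that hold each is given beside it. The TEAD motif GGAATG, bound by the partners of Yap, was in 2 of the 21 (12.6% of all), those of *Itgb1* and of one *Lamb3* transcript. The GATA motif AGATAA was in 1 (9.99% of all) and its core GATAA in 2 (22.6%). The PU.1 motif GAGGAAGT was in 4 (2.44% of all), those of *Itga11*, *Itgav*, *Itgb2l* and one *Itgb6* transcript, and the ETS core GGAAG, which the PU.1 motif contains, in 14 (64.1%). The *Itga2b* (chr11:102469884-102470133, minus strand) and *Itgam* (chr7:128062390-128062639, plus strand) windows are shown for chains of blood cells with less signal in day 8 *Mst-/-* EBs, and the *Itgb1* window (chr8:128685404-128685653, plus strand) for the shared chain that differed by less than 1.5-fold. Capitals mark GGAAG or GGAATG on either strand, and a match is a run of letters and no evidence of binding.
Itga2b: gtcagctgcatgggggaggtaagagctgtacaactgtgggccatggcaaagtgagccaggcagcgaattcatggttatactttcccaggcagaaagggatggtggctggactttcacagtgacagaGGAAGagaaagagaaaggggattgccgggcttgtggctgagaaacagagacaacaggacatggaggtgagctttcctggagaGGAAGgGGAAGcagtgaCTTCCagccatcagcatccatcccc
Itgam: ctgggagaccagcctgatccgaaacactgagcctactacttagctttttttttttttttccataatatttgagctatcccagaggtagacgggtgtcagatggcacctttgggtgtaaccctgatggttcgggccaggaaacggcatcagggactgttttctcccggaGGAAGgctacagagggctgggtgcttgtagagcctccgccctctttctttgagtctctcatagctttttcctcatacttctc
Itgb1: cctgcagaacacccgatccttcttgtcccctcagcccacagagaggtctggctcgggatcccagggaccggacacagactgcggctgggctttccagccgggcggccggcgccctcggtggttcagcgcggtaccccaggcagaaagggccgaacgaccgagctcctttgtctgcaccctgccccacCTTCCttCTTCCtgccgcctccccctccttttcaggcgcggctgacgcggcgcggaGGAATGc
The *Itga2b* window held 4 matches to the ETS core, the *Itgam* window 1 and the *Itgb1* window 2, and the *Itgb1* window also held the TEAD motif, 7 bases before the start.

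The largest genotype difference of any member, that of *Itga8* at day 4, fell in the group of chains that recognize the RGD motif of fibronectin, vitronectin, nephronectin and fibrinogen. *Itga8* encodes the α8 chain, the partner of β1 that binds nephronectin and is known from kidney and smooth muscle. It stood at 8.83 in *Mst-/-* EBs and 9.72 in wild type EBs at day 8, and at 7.35 in *Mst-/-* EBs and 9.66 in wild type EBs at day 4. All 33 probe sets were lower in *Mst-/-* EBs on each day, by -0.89 ± 0.31 (1.85-fold) at day 8 and -2.31 ± 0.67 (4.96-fold) at day 4. *Mst-/-* EBs stood 1.48 ± 0.52 higher at day 8 than at day 4, whereas the days differed by 0.06 ± 0.18 in wild type EBs. *Npnt*, which encodes nephronectin, was 1.99-fold lower at day 8 and higher by 0.79 ± 0.77 at day 4.

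*Itgb3* encodes the β3 chain, which pairs with αv on endothelium, osteoclasts and many other cells and with αIIb on platelets. It stood at 8.18 in *Mst-/-* EBs and 9.68 in wild type EBs at day 8, and at 7.51 in *Mst-/-* EBs and 6.60 in wild type EBs at day 4, where the wild type value was below background. At day 8 it was lower in *Mst-/-* EBs on 14 of 14 probe sets (-1.50 ± 0.47, 2.84-fold). At day 4 it was higher by 0.90 ± 0.64 on 12 of 14 probe sets, which is at least 1.39-fold against background. Its brightest probe set differed by -0.39 at day 8 and -0.32 at day 4, so the day 4 direction was not shared by that probe set. Day 8 exceeded day 4 by 0.67 ± 0.52 in *Mst-/-* EBs and by 3.08 ± 1.19 in wild type EBs, the wild type change being at least 6.26-fold against background. *Itga2b*, the αIIb chain of platelets and early blood progenitors, stood at 8.03 in *Mst-/-* EBs and 9.05 in wild type EBs at day 8, and at 7.25 in *Mst-/-* EBs and 7.54 in wild type EBs at day 4. It was lower at day 8 on 35 of 35 probe sets (-1.02 ± 0.81, 2.03-fold), with single probe sets between -3.00 and -0.01.

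Of the other RGD-binding chains above background, *Itga5* passed 1.5-fold at day 4 and *Itgav* and *Itgb5* on neither day. *Itga5*, the α chain of the classical fibronectin receptor, stood at 11.05 in *Mst-/-* EBs and 11.02 in wild type EBs at day 8, and at 10.12 in *Mst-/-* EBs and 10.87 in wild type EBs at day 4. It was lower in *Mst-/-* EBs at day 4 on 33 of 33 probe sets (-0.75 ± 0.23, 1.68-fold) and level at day 8 (0.03 ± 0.16). *Fn1*, its ligand fibronectin, was also lower at day 4 (-1.57 ± 0.36) and differed by -0.50 ± 0.16 at day 8. *Itgav*, whose αv chain pairs with several β chains, stood at 10.52 in *Mst-/-* EBs and 10.73 in wild type EBs at day 8, and at 9.93 in *Mst-/-* EBs and 9.83 in wild type EBs at day 4. *Itgb5*, one of those β chains, stood at 10.85 in *Mst-/-* EBs and 10.94 in wild type EBs at day 8, and at 10.14 in *Mst-/-* EBs and 10.33 in wild type EBs at day 4. The differences of *Itgav* were -0.21 ± 0.13 and 0.10 ± 0.21, and those of *Itgb5* -0.09 ± 0.22 and -0.19 ± 0.19, at day 8 and day 4.

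*Itga9*, the α9 chain that pairs with β1 and binds tenascin-C among other ligands, stood at 9.02 in *Mst-/-* EBs and 9.27 in wild type EBs at day 8, and at 8.09 in *Mst-/-* EBs and 8.79 in wild type EBs at day 4. Its day 4 difference was -0.70 ± 0.35 (1.62-fold), with 29 of 29 probe sets lower, and its day 8 difference was -0.25 ± 0.29. *Tnc*, the tenascin-C gene, differed by -0.34 ± 0.27 at day 8 and -0.75 ± 0.52 at day 4, where its *Mst-/-* value was below background and the gene was at least 1.56-fold lower. The collagen-binding chains *Itga2* and *Itga11* were at or below background, with *Itga11* above it only in wild type EBs at day 8 (6.78 in *Mst-/-* EBs against 7.10 in wild type EBs).

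Of 7 leukocyte integrin chains, 1 lay above background in *Mst-/-* EBs and 4 in wild type EBs at day 8, and 3 in *Mst-/-* EBs and 1 in wild type EBs at day 4. Over all genes, 72.0% and 71.5% lay above it at day 8 and 70.8% and 69.6% at day 4, *Mst-/-* first. Several of these chains lay close to background. *Itgal* stood at 6.82 and 7.27 at day 8 and at 7.18 and 6.85 at day 4, so the counts are descriptions only. *Itgb2* encodes the β2 chain common to the integrins of leukocytes. It stood at 6.34 in *Mst-/-* EBs and 7.87 in wild type EBs at day 8, and at 7.03 in *Mst-/-* EBs and 6.74 in wild type EBs at day 4. Its day 8 difference was -1.54 ± 0.52 with 16 of 16 probe sets lower, at least 1.94-fold against background. *Itgam*, the αM chain that pairs with β2 on macrophages and neutrophils and whose promoter is shown above, stood at 6.06 in *Mst-/-* EBs and 7.23 in wild type EBs at day 8, and at 6.41 in *Mst-/-* EBs and 6.04 in wild type EBs at day 4. All 31 probe sets were lower in *Mst-/-* EBs at day 8 (-1.17 ± 0.98), but against background the gene was at least 1.25-fold lower, short of the threshold. *Itgal*, the αL chain of lymphocytes, differed by -0.45 ± 0.44 at day 8, and its signals, like those of *Itga7* and *Itga11*, stayed between 6.70 and 7.40. *Itgb7*, the β7 chain of gut lymphocytes, stood at 7.33 in *Mst-/-* EBs and 7.66 in wild type EBs at day 8 (-0.33 ± 0.48), and at 7.73 in *Mst-/-* EBs and 7.58 in wild type EBs at day 4 (0.14 ± 0.44). *Itgae*, *Itgax* and *Itgb2l* were not above background on any array.

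Most blood cell markers compared moved in the same direction at day 8. Of 8 leukocyte markers, 3 lay above background in *Mst-/-* EBs and 6 in wild type EBs, with mean signals of 6.89 in *Mst-/-* EBs and 8.53 in wild type EBs. The shares of all genes above background were 72.0% and 71.5%. Of the 6 compared, 5 were over 1.5-fold lower, with a median of -1.95, among them *Fcer1g* (-3.32 ± 1.24), *Tyrobp* (-2.94 ± 1.55), *Spi1* (-2.35 ± 1.39) and *Laptm5* (-1.55 ± 0.77). The first 3 were below background in *Mst-/-* EBs, which makes them at least 7.94-fold, 6.32-fold and 3.76-fold lower. They entered the comparison through the wild type array alone, so their direction was fixed by the filter. The other marker compared, *Cd68*, went the opposite way, by 0.44 ± 0.13, short of 1.5-fold. The pan-leukocyte marker *Ptprc* and the macrophage marker *Adgre1* were below background in both genotypes, at 5.15 and 5.57 in *Mst-/-* EBs and 6.43 and 6.95 in wild type EBs. At day 4 the order was the other way, with mean signals of 6.99 in *Mst-/-* EBs and 6.48 in wild type EBs and 4 of 5 markers compared higher. Of these, *Laptm5* (1.88 ± 0.67) and *Cd68* (0.64 ± 0.30) were above background on both arrays, whereas *Spi1* and *Csf1r* were below it in wild type EBs and at least 1.17-fold and 1.10-fold higher against it, short of 1.5-fold. The filter fixed the direction of *Spi1* and *Csf1r* here too. The platelet genes *Pf4* and *Gp9* stood at 5.83 and 6.35 in *Mst-/-* EBs and at 9.81 and 9.04 in wild type EBs at day 8. Their *Mst-/-* values were below background, which makes them at least 7.46-fold and 4.37-fold lower. Of the 5 genes of the megakaryocyte and platelet list, which includes *Itga2b*, the 4 compared at day 8 were all lower, with a median of -1.86. For *Pf4* and *Gp9* this direction was fixed by the filter, and *Itga2b* is itself a member. *Gp1bb*, above background on both arrays, differed by -0.70 ± 0.77. The part of blood cells in the differences of *Itgb2*, *Itgam*, *Itga2b* and *Itgb3* was not tested.

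Mesenchymal and vascular markers moved as well. Of 8 fibroblast markers, 7 were over 1.5-fold lower in *Mst-/-* EBs at day 8, with a median of -2.48 and mean signals of 9.54 in *Mst-/-* EBs and 11.77 in wild type EBs. At day 4 their mean signals were 7.30 in *Mst-/-* EBs and 7.44 in wild type EBs. Of 6 endothelial markers, 3 were lower at day 8, with a median of -0.80 and mean signals of 9.42 in *Mst-/-* EBs and 10.11 in wild type EBs, and at day 4 *Kdr* (-4.11 ± 0.82) and *Cdh5* (-1.12 ± 0.75) were lower while *Pecam1* (2.76 ± 0.94) and *Tek* (1.60 ± 0.66, at least 2.42-fold against background) were higher. All 6 pluripotency markers passed 1.5-fold upward in *Mst-/-* EBs at day 8, with mean signals of 10.27 in *Mst-/-* EBs and 8.83 in wild type EBs, and 5 of the 6 at day 4. Of 5 markers of primitive streak mesoderm, *Eomes* (2.31 ± 1.18), *Mixl1* (1.98 ± 0.78) and *T* (1.60 ± 0.87) were higher at day 8, with a median of 1.79 over the 4 compared, and 4 were lower at day 4, with mean signals of 9.97 in *Mst-/-* EBs and 11.29 in wild type EBs. The part of these cell types in the differences of *Itga8*, *Lama2*, *Lama4* and *Itga3* was not tested.

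Between day 8 and day 4 many members were higher at day 8 in both genotypes. In *Mst-/-* EBs, 12 of 21 members compared were over 1.5-fold higher at day 8 (57.1%) where the share over all genes compared was 13.3%, and 1, *Itgb2*, was lower (4.76%) where it was 7.48%. Taken in either direction, 61.9% of the members passed there, against 20.7% of all genes. *Itgb2* was at background at day 4 and below it at day 8, so its fold against background was only 1.09. In wild type EBs, 12 of 23 members compared were higher at day 8 (52.2%) where the share was 16.7%, and 0 were lower where it was 12.7%, so that the share in either direction was the same 52.2%, against 29.4% of all genes. The median over the members compared was 0.67 in *Mst-/-* EBs and 0.60 in wild type EBs, beside -0.01 and -0.02 over all genes compared. The comparisons over time share arrays with those between the genotypes. Between the days, 18.8% of the receptor genes in *Mst-/-* EBs and 12.1% in wild type EBs lay over 1.5-fold apart. Their SDs were 0.47 and 0.41.

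By the measured values, the 8 members higher at day 8 in both genotypes were *Itga2b*, *Itgav*, *Itgb3*, *Itgb5*, *Lama1*, *Lama2*, *Lama4* and *Lamc1*. The overlap over all genes was not counted, so this number is a description only. *Lama2* was below background at day 4, and against that floor its change was bounded at 1.24-fold or more in *Mst-/-* EBs, short of 1.5-fold, and at 2.12-fold or more in wild type EBs. *Itga5*, *Itga8*, *Itga9* and *Itgb1* passed 1.5-fold in *Mst-/-* EBs, and *Itga3*, *Itga6*, *Itgam* and *Itgb2* in wild type EBs. *Itgam* and *Itgb2* were below background in wild type EBs at day 4, and against it they were at least 1.15-fold and 1.79-fold higher at day 8. *Lama4* exceeded its day 4 signal by 2.79 ± 0.90 in *Mst-/-* EBs, at least 5.43-fold against background, and by 1.80 ± 0.43 (3.49-fold) in wild type EBs. *Lamc1* did so by 1.28 ± 0.11 in *Mst-/-* EBs and 1.45 ± 0.21 in wild type EBs, and *Lamb1* by 1.42 ± 0.28 and 0.71 ± 0.19. *Itgb1* was 0.71 ± 0.10 higher at day 8 in *Mst-/-* EBs and 0.31 ± 0.13 higher in wild type EBs. Whether the genotypes differ in these changes was not tested.

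**Figure D4:**
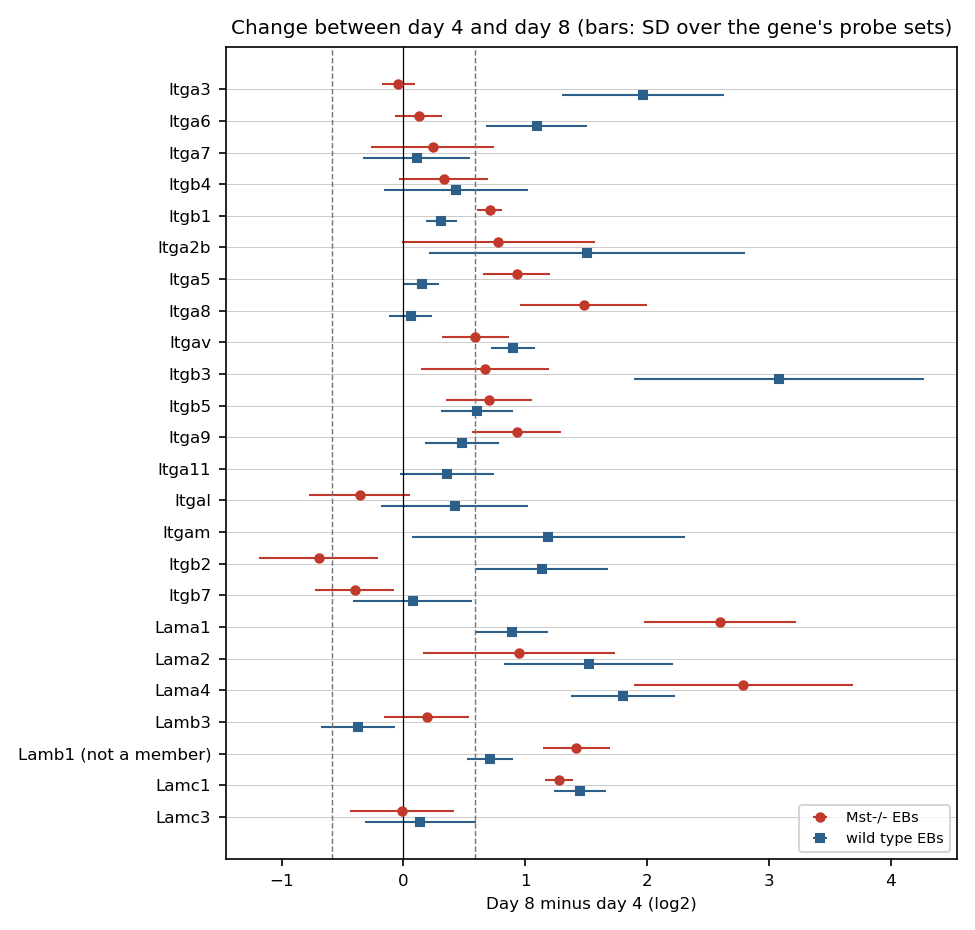
Difference of signal, day 8 minus day 4 (log2, horizontal axis), in *Mst-/-* EBs (circles) and wild type EBs (squares) for the members above background on at least 1 array and for *Lamb1*; bars give the SD over probe sets, dashed lines mark 1.5-fold, and no symbol is drawn where a gene was below background on both days. *Itga3*, *Itga6* and *Itgb3* lie farther right in wild type EBs, and *Lama1*, *Itga8* and *Itga5* in *Mst-/-* EBs.

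The genes of other basement membrane proteins differed among themselves. Of 19 basement membrane genes listed, 17 were compared at day 8, and of these 0 were over 1.5-fold higher and 5 lower in *Mst-/-* EBs, with a median of -0.18. The lower ones were *Frem1* (-1.23 ± 0.21), *Col4a6* (-0.84 ± 0.49), *Col4a5* (-0.82 ± 0.41), *Col15a1* (-0.68 ± 0.48) and *Nid1*, the nidogen that ties laminin to type IV collagen (-0.61 ± 0.11). *Col15a1* was below background in *Mst-/-* EBs and at least 1.60-fold lower against it. The main type IV collagen genes *Col4a1* and *Col4a2* did not pass 1.5-fold, but their differences had the signs of those of *Lama1*, at 0.51 ± 0.52 and 0.34 ± 0.42 at day 8 and -0.48 ± 0.52 and -0.38 ± 0.45 at day 4. At day 4, *Col18a1* (1.47 ± 0.70) and *Nid2* (0.72 ± 0.19) were higher, and *Frem1* (-2.80 ± 1.06), *Ntn4* (-0.80 ± 0.66) and *Col4a6* (-0.76 ± 0.73) were lower, with a median of -0.24 over 17 genes. The day 4 *Mst-/-* values of these 3 were below background, and against it they were at least 5.10-fold, 1.45-fold and 1.15-fold lower, so only *Frem1* passed 1.5-fold there. Between day 8 and day 4, 8 of 16 were higher at day 8 in *Mst-/-* EBs and 11 of 17 in wild type EBs, where the shares over all genes were 13.3% and 16.7%. Between the genotypes the shares over all genes compared were 8.42% higher and 8.22% lower at day 8, and 10.3% and 8.52% at day 4.

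Of 16 other integrin ligands compared at day 8, 4 were over 1.5-fold higher and 7 lower in *Mst-/-* EBs, with a median of -0.42, and at day 4, 6 of 15 were higher and 2 lower, the median being 0.26. Over all genes compared, 8.42% were higher and 8.22% lower at day 8, and 10.3% and 8.52% at day 4. *Spp1*, which encodes osteopontin, a ligand of αv integrins, was higher on both days, by 2.41 ± 0.61 and 2.81 ± 0.59. *Ccn1* and *Ccn2*, matricellular ligands of several integrins and known targets of Yap, were higher by 1.09 ± 0.16 and 1.02 ± 0.17 at day 8 and by 0.65 ± 0.09 and 1.30 ± 0.11 at day 4. *Thbs1*, the thrombospondin-1 gene, differed by -0.71 ± 0.16 at day 8 and 1.15 ± 0.34 at day 4. *Col1a2* (-2.80 ± 0.71), *Col1a1* (-2.56 ± 0.52), *Postn* (-1.84 ± 0.46) and the vitronectin gene *Vtn* (-1.34 ± 0.42) were lower at day 8, the first 3 of which also stand in the fibroblast list.

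Inside the cell, 2 of the 22 genes compared, of 24 listed for the integrin adhesion complex, were over 1.5-fold higher and 2 lower in *Mst-/-* EBs at day 8, with a median of -0.16, and 3 of 20 were higher and 2 lower at day 4, the median being 0.10. Over all genes compared, 8.42% were higher and 8.22% lower at day 8, and 10.3% and 8.52% at day 4. The day 8 counts of this list lay near those shares. The kindlin genes, whose products activate integrins, went apart. *Fermt1*, the epithelial kindlin, was higher on both days (0.73 ± 0.36 and 1.75 ± 0.35), *Fermt3*, the kindlin of blood cells, was lower at day 8 (-1.49 ± 0.68), and *Fermt2* differed by -0.20 ± 0.11 and -0.23 ± 0.13. *Ptk2b*, a kinase related to focal adhesion kinase, was higher on both days (0.98 ± 0.33 and 2.03 ± 0.82). *Tns1*, a tensin that binds β chains, was lower at day 8 (-1.03 ± 0.30) and higher at day 4 (0.60 ± 0.27), and *Parvb* (-1.34 ± 0.62) and *Tln2* (-0.71 ± 0.51) were lower at day 4.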

How the data were processed

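Total RNA of 4 EB samples was measured on Affymetrix exon arrays, 1 per genotype and day. Each deposited value is the log2 signal of 1 probe set. The Affymetrix Expression Console appears in the submitters' processing notes with no version number. Which normalization and probe set summary the authors chose there remains unknown here, but the arrays, sorted by value, never lay more than 0.17 apart and so shared a scale. The study's methods name Partek, Genespring and a threshold of 1.5-fold, which was used here. Of 229581 probe sets, 209279 had 1 gene symbol, 4446 several and 15856 none, and only the first kind was used. Other genes' symbols (2145 of 16380) were updated through RefSeq synonyms, while members were found by array symbol. No scaling was added. Between 69.6% and 72.0% of genes lay above background on an array. The number of arrays limits the precision, and no test was run, since each comparison sets 1 array against 1.

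Calls and counts use the measured values; where 1 array of a called gene lay below background, a bound is given beside the difference, with that array set at its background. The members and gene lists were chosen with earlier results of these data known. Values on every array are given for members over 1.5-fold apart between the genotypes on at least 1 day and for the 5 brightest others, and up to 4 genes of each list on each day were to be named by the size of their difference. Other list genes, such as *Nid1*, *Nid2*, *Col4a1*, *Npnt*, *Fermt2* and *Ptprc*, were named beside them after their values were seen. Alternatives changed 1 choice at a time. The computation was tested on simulated arrays. Python 3.11.15, numpy 2.4.6, pandas 2.3.3 and matplotlib 3.10.9 were used.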

Additional observations from a re-analysis of the deposited data

Results flagged for a closer look

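For 2 members the same contrast passed 1.5-fold in opposite directions in the groups compared by the measured values, and for each of them 1 of the directions was short of 1.5-fold against background. For *Itgb3*, *Mst-/-* minus wild type EBs was -1.50 on the log2 scale at day 8 and 0.90 at day 4. Its wild type value at day 4 was below background, against which the gene was at least 1.39-fold higher, and its brightest probe set differed by -0.32 at day 4. *Itgb2* differed between day 8 and day 4 by -0.70 in *Mst-/-* EBs and by 1.14 in wild type EBs. Its *Mst-/-* value at day 8 and its wild type value at day 4 were below background, and against it the changes were at least 1.09-fold lower and 1.79-fold higher. With 1 array per genotype and day, neither difference between the groups was tested.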

How the results depend on the processing

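With 1 array per genotype and day nothing here is backed by a replicate, and no paired analysis was possible because no result comes from a test. Under 6 other ways of computing a gene's value, *Itga3* and *Itga9* at day 4, *Itga8* on both days and *Itgb2*, *Lama1* and *Lama2* at day 8 stayed past 1.5-fold under each. Of 18 pairs of a gene and a day past 1.5-fold, *Lamb1* included, 17 stayed past it after centring each array on its median, 18 after quantile normalization, 15 with the mean over probe sets, 7 with the brightest probe set, 17 with probe sets above background and 16 with values raised to background. The brightest probe set turned *Itgb3* at day 4 to -0.32. *Lamb3* at day 8 was 0.57 after centring, 0.44 with the mean and 0.07 with the brightest probe set. *Lamb1* at day 8 was 0.565 with the mean and 0.36 with the brightest probe set, and *Itga6* at day 8 was -0.581 and -0.53. At day 8, centring left 1 member higher, as did the brightest probe set, the 99th percentile as background and a 2-fold threshold (1 each), beside 2 in the main analysis. The 7 lower members became 3 with the brightest probe set and 4 at 2-fold. At day 4, the 4 higher members became 1 with the brightest probe set, 2 with the 99th percentile and 1 at 2-fold, and the 4 lower became 2 at 2-fold. The day 4 median of 0.05 was -0.073 with the mean, -0.07 with the brightest probe set, -0.10 with probe sets above background and -0.24 with the 99th percentile, so its sign was not settled. For day 8 minus day 4, centring shifts all differences by -0.16 in *Mst-/-* EBs and by -0.15 in wild type EBs. In *Mst-/-* EBs the 12 higher members became 8 after centring, 8 with the brightest probe set and 4 at 2-fold. The 1 lower became 0 with the mean, the brightest probe set, probe sets above background, the 99th percentile, values raised to background or 2-fold. The median of 0.67 there was 0.51 after centring, 0.56 after quantile normalization, -0.06 with the brightest probe set, 0.31 with probe sets above background and 0.37 without the background filter. In wild type EBs the 12 higher became 6 with the brightest probe set. The median of 0.60 there was 0.46 after centring, 0.47 with the mean, 0.32 with the brightest probe set, 1.00 with the 99th percentile and 0.48 with values raised to background. Members near background, such as *Itgam*, *Itgal*, *Itga11* and *Lamb3*, are limited by the receptor genes' SD of 0.44.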
